A study of Mus musculus with 319 samples.

Results

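Transcripts of the mitochondrial respiratory chain and ATP synthase were followed across 319 arrays of muscle from F2 mice, which carry 318 distinct animal numbers. The members were all array probes whose gene symbol begins with Nduf, Sdha, Sdhb, Sdhc, Sdhd, Uqcr, Cox4, Cox5, Cox6, Cox7, Cox8 or Atp5, which gave 48 probes of 40 genes among 23382 probes. The Nduf prefix brought 20 probes of 17 genes, the Cox prefixes 14 probes of 14 genes and the Atp5 prefix 14 probes of 9 genes. No probe carried an Sdh or Uqcr symbol, so complexes II and III are not described. Of the Nduf genes, 13 encode complex I subunits and 3, Ndufaf1 to Ndufaf3, encode assembly factors. Ndufa4l2 is a paralogue of Ndufa4 and no subunit of complex I. Among the Cox genes, Cox7a2l encodes a factor that joins respiratory complexes into supercomplexes and the other 13 encode complex IV subunits.

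The respiratory chain sits in the inner mitochondrial membrane. Complex I takes electrons from NADH, complex IV passes electrons to oxygen, and the proton gradient they build drives ATP synthase, often called complex V. Muscle is rich in these proteins, and several complex IV subunits exist as a heart and muscle isoform and an isoform found in most tissues.

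Their founders were C57BL/J6 (so spelled in most labels, and C57BL/6J in another) and C3H/HeJ mice that both lacked functional ApoE, so every animal carried that deficiency, and both sexes were used. A high-fat Western diet was fed from week 8 to week 24 of age. Each 2-colour array compared the RNA of 1 animal, in Cy3, with a pool of RNA of all animals, in Cy5. The labels do not say which muscle was taken or the sex of each animal. They name no genotype, treatment or batch that differs between arrays. The 319 arrays therefore formed 1 group, and each is given as a log2 ratio of animal over pool. Sex entered no fit, and its part in the results was not tested. A ratio to a pool holds no absolute level, so levels were not compared between genes and the tissue could not be checked by the presence of muscle markers. Whether the direction is animal over pool was read from the Y-linked gene Eif2s3y, which had a median of -5.62 on 164 arrays and 1.08 on 155. The signs of slopes and correlations between genes do not depend on that direction. Over 50721 pairs of arrays, 5078 correlated below -0.3 across probes. A score of 10 measured lymphocyte genes (including Cd79a, Cd3e and Ltb) split the arrays into 263 below and 56 above a gap, with means 7.24 within-group SDs apart. Results were therefore also computed on each side of that gap. In bulk RNA, fewer cells of a type and less RNA per cell cannot be told apart.

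Over all arrays, Cox6a1 and Cox8a, complex IV isoforms of most tissues, ran opposite to most other members, as described further on. Cox7a2, also an isoform of most tissues, did not, and neither did the muscle isoforms Cox7a1 and Cox8b. On the arrays below the lymphocyte gap the mean correlations of Cox6a1 and Cox8a with the other subunits were only -0.0464 and -0.0433. The promoter windows of these 5 genes are shown here to set members of both isoform classes side by side. Each covers 250 bases before and 50 after the gene start in the RefSeq assembly GRCm38.p6 and is written 5′ to 3′ on the strand of the gene. The windows are chr5:115348909-115349208 (minus strand) for Cox6a1, chr19:7217567-7217866 (minus) for Cox8a, chr9:79759804-79760103 (minus) for Cox7a2, chr7:30183921-30184220 (plus) for Cox7a1 and chr7:140900397-140900696 (minus) for Cox8b. Capitals mark matches to CCGGAAG, a motif of the ETS family, searched on both strands.
Cox6a1: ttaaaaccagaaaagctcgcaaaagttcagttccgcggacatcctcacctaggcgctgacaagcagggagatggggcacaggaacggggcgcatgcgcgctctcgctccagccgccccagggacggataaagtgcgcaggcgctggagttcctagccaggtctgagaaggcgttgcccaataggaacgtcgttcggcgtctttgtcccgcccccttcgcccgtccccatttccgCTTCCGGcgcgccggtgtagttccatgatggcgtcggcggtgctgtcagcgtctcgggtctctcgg
Cox8a: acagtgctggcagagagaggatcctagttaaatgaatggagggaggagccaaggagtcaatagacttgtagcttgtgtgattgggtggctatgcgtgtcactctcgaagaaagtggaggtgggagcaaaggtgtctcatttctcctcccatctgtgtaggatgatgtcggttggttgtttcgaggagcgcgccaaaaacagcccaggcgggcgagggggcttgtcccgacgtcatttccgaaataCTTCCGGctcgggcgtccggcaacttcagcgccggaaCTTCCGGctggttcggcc
Cox7a2: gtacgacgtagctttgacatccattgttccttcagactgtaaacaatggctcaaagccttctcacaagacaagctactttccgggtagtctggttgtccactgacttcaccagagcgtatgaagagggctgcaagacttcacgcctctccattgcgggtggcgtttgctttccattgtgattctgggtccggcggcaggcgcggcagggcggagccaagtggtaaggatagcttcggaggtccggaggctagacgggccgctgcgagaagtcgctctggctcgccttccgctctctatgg
Cox7a1: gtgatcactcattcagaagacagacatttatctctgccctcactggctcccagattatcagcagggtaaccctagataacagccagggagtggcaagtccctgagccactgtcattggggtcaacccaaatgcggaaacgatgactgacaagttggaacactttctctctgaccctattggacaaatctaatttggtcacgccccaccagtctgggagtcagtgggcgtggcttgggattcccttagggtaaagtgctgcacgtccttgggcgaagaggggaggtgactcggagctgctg
Cox8b: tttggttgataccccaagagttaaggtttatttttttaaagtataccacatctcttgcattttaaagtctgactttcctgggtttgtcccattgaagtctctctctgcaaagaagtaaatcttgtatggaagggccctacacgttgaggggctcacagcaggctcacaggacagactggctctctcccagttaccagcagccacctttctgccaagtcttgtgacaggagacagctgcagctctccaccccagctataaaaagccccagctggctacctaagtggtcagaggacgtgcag
The Cox6a1 window held 1 match, the Cox8a window 2, and those of Cox7a2, Cox7a1 and Cox8b held no match to these letters. The windows contained 32 CpG dinucleotides in Cox6a1, 19 in Cox8a, 20 in Cox7a2, 7 in Cox7a1 and 2 in Cox8b, where the median was 19 over 33 members with a RefSeq promoter and 7 over 27025 promoters. The ETS motif was found in 9 of the 33 members (27.3% against 9.12% of all promoters), AAGATGGC, the motif of YY1, in 3 of 33 (9.09% against 2.88%), and AAGGTCA, the motif of oestrogen-related receptors, in 2 of 33 (6.06% against 4.66%). The E box CANNTG was found in 24 of 33 (72.7% against 72.2%). A match is a description of these letters and no evidence of binding.

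Many members could be read on only some arrays. Values were blank on more than 20% of arrays for 15 of the 48 probes, or 31.2%, against 0.821% of all 23382 probes. The share differed between complexes. It was 1 of 19 probes among complex I subunits and assembly factors, 6 of 14 in complex IV and 8 of 14 in complex V. The catalytic subunits of ATP synthase were among the least covered, with values on 9 arrays for Atp5a1 (alpha) and 20 for Atp5b (beta). Cox5a had values on 11 arrays and Cox6a2, the muscle isoform of subunit 6a, on 15. Partial coverage was found for Atp5e (42 arrays), Atp5j (110), Atp5j2 (118), Cox5b (140), Cox4i1 (144), Cox8b (204) and Cox7b (221). Of repeated probes, Atp5k had values on 12 and 35 arrays, the second Ndufa13 probe on 21 and 1 of 4 Atp5c1 probes on 194.

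Blanks of different members fell on the same arrays. Among 7 partly blank probes, the correlation of being blank ran from 0.372 to 0.67 over 21 pairs, with a median of 0.469. An array lacked between 1 and 15 of these 15 values, with a median of 11, and 52 arrays lacked all of them. Probes of other transcripts that are abundant in muscle were blank as well, among them the glycolytic enzyme Eno3 (values on 8.15% of arrays), muscle creatine kinase Ckm (31.7%) and the adenylate kinase Ak1 (8.78%). Blanks also fell on genes that are not particular to muscle. Rplp0, a ribosomal protein gene, had values on 8.15% of arrays, Eef2 on 3.76%, Pde6g on 51.7% and Fgf18 on 63.3%. No source used here says why values were left blank. The remaining 33 probes of 28 genes had values on at least 80% of arrays and are the ones described below unless stated. They cover 13 complex I subunits with 15 probes, 3 assembly factors, 7 complex IV subunits, Cox7a2l, 3 complex V subunits with 6 probes (Atp5c1, Atp5g1 and Atp5h) and Ndufa4l2.

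**Figure D1:**
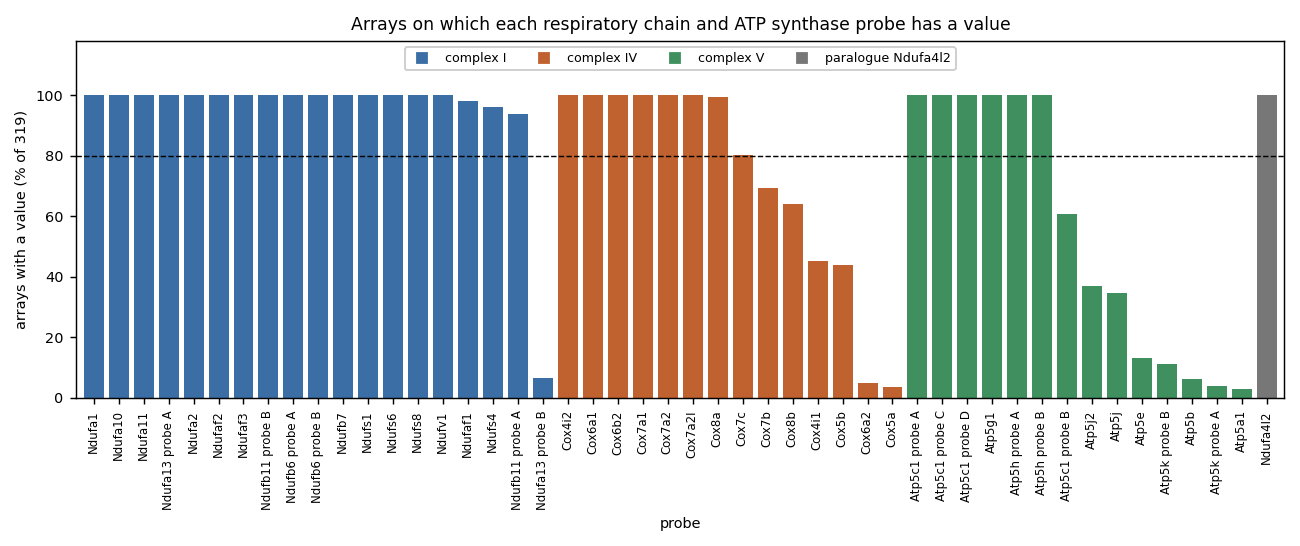
Each bar is the percentage of the 319 arrays on which a member probe has a value, coloured by complex, with a dashed line at 80%. Complex I probes stand near full coverage apart from 1 Ndufa13 probe, whereas 6 complex IV and 8 complex V probes fall below the line.

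Ratios of complex I genes mostly stayed within 1 log2 unit of the pool. The NADH-binding subunit Ndufv1 ran from -0.64 to 0.83 with a median of 0.08, and the core iron-sulphur subunit Ndufs8 from -0.68 to 0.55 with a median of 0.06. The core iron-sulphur subunit Ndufs1 reached much lower, from -1.88 to 0.47 with a median of 0.01. The accessory subunit Ndufa11 varied least, with an SD of 0.104 that was larger than that of 1.26% of tested probes. Among complex IV genes, Cox6a1 ran from -0.87 to 1.08 (median -0.28, SD 0.382) and its SD exceeded that of 80.6% of tested probes. Cox8a ran from -0.65 to 1.42 with a median of -0.15, so both had a median below the pool while the other members had medians near 0. The muscle isoform Cox7a1 ran from -0.98 to 0.7 (median 0.03), and its partner Cox7a2 from -0.81 to 1.7 (median 0.02). Cox4i2, an isoform known from lung and smooth muscle, ran from -0.32 to 1.18 (median 0.02).

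The lowest ratios among the measured members were those of Atp5c1 and Atp5h. Probe D of Atp5c1, the gamma subunit that forms the rotating shaft, ran from -3.88 to 0.84 with a median of -0.04, and probe A of Atp5h, a stalk subunit, from -3.14 to 0.52 with a median of 0.03. Atp5g1, which encodes the c ring, stayed between -0.80 and 0.68 with a median of 0.02. The low tail came from few arrays and, for Atp5c1, mainly from probes C and D. Probe A of that gene ran from -1.09 to 0.55. It had 2 arrays below -1, against 11 for probe D and 6 for probe C. From the 5th to the 95th percentile of arrays, Atp5c1 probe D spanned 0.969 and Atp5h probe A 0.837 log2 units, less than the 1.22 of Cox6a1 and the 1.13 of Cox7a2. Averaged over its probes, Atp5c1 lay at -2.80, -2.51, -1.47, -1.10 and -1.04 on the 5 lowest arrays, which are animals 75, 55, 239, 56 and 219. Atp5h lay at -2.86, -2.41, -1.35 and -1.17 on the first 4 of these arrays and just below -1 on the last, and Ndufs1 at -1.88, -1.49, -0.66, -0.47 and -0.65. Atp5g1 was not low there, at 0.29, 0.41, 0.68, -0.22 and 0.21, and Cox7a2 was high, at 1.37, 1.17, 1.70, 0.87 and 0.58. The glycolysis and glycogen score described below ranked 319, 318, 316, 317 and 292 from the highest on these arrays, and the lymphocyte score 8, 5, 61, 11 and 57. Keratinocyte genes ranked 25, 30, 37, 4 and 67 there, and neutrophil genes 20, 12, 21, 39 and 170. The part of these scores in the low values was not tested.

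**Figure D2:**
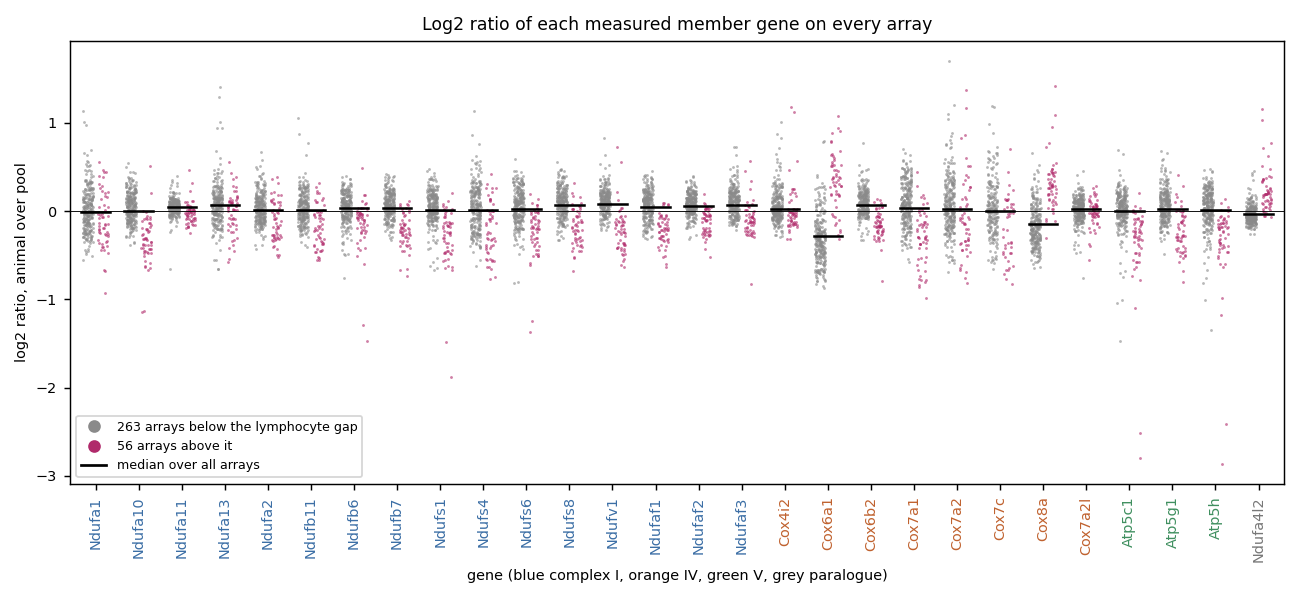
Each point is the log2 ratio of animal over pool of 1 gene on 1 array, with grey points for the 263 arrays below the lymphocyte gap, purple points for the 56 above it and a black line at the median over all arrays. Atp5c1 and Atp5h carry a few points below -2, and Cox6a1 and Cox8a have medians below 0.

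Probes of the same gene did not always follow each other. The pairs of Ndufb11 and Atp5h correlated at 0.967 and 0.972 over arrays, and the 6 pairs of Atp5c1 probes at 0.45 to 0.986. The probes of Ndufb6 correlated at 0.207 over 319 arrays, and those of Ndufa13 at -0.4 over the 21 arrays with both values. Ndufb6 and Ndufa13 values therefore depend on the probe, and so does the depth of the low Atp5c1 values.

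Members tended to rise and fall together from animal to animal. Over 253 pairs of the 23 measured subunits the mean Pearson correlation was 0.256, and 31.2% of pairs exceeded 0.5. Over all pairs of tested probes with full data the mean was 0.0143 and 5.50% exceeded 0.5. These correlations share arrays and are given as a description. Within complex I the mean was 0.373 over 78 pairs, and within complex V 0.4 over 3 pairs. Within complex IV it was 0.162 over 21 pairs and 0.409 without Cox6a1 and Cox8a, a choice made after their values were seen. Between complexes I and V the mean was 0.423, and between IV and V 0.0486. On the arrays below the lymphocyte gap the means within complexes I, IV and V were 0.247, 0.24 and 0.273, and without the first principal component 0.218, 0.275 and 0.166, so the order of the complexes depended on the setting.

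Tight blocks crossed the complexes. One joined Atp5c1 and Atp5h (r = 0.91, rho = 0.824) with the complex I subunit Ndufs1, which correlated with Atp5c1 at 0.846 and with Atp5h at 0.805. Another held the small accessory complex I subunits Ndufa1, Ndufa2 and Ndufb11, with correlations from 0.828 to 0.887. Ndufs4, an accessory complex I subunit, and Cox7a2 correlated at 0.772. A further block joined the c-ring gene Atp5g1 with Ndufv1 (0.784) and Ndufs8 (0.776). These pairs kept their sign on each side of the lymphocyte gap. Below it the correlation was 0.816 for Atp5c1 with Atp5h, 0.884 for Ndufa1 with Ndufa2 and 0.652 for Atp5g1 with Ndufv1, and above it 0.957, 0.882 and 0.814. Complex V genes of different blocks were only weakly related, with a correlation of 0.138 between Atp5c1 and Atp5g1 (rho 0.365).

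Several members stood outside. Cox6a1 and Cox8a correlated with each other at 0.879 (rho 0.88), at 0.821 below the gap and at 0.743 above it. Their mean correlation with the other subunits was -0.287 and -0.261, which came to -0.0464 and -0.0433 on the arrays below the gap. Ndufa4l2 had a mean of -0.262 (-0.0524 below the gap) and correlated with Atp5h at -0.818 and with Cox8a at 0.694. Ndufa13, an accessory complex I subunit, had a mean of 0.0198, and Cox4i2 one of 0.0844. Cox4i2 correlated with Cox7a2 at 0.709. Members left out for blanks could be placed only on the arrays they had. Blanks of different members fell on the same arrays, and whether the arrays with values stand for the rest was not tested. Over those arrays Cox4i1 correlated with the mean of the measured members at 0.776, Cox5b at 0.684, Cox7b at 0.668, Cox8b at 0.607 and Atp5j at 0.654. Atp5j2, a membrane subunit of ATP synthase, correlated with Cox7a2 at 0.839 and Cox8b with Cox7a2 at 0.78, whereas Cox8b correlated with its own counterpart Cox8a at 0.0928 over 202 arrays. For Cox8b with Cox8a the correlation was 0.245 (rho 0.254) on 161 arrays below the gap. It was 0.424 (rho -0.00958) on 41 arrays above it.

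**Figure D3:**
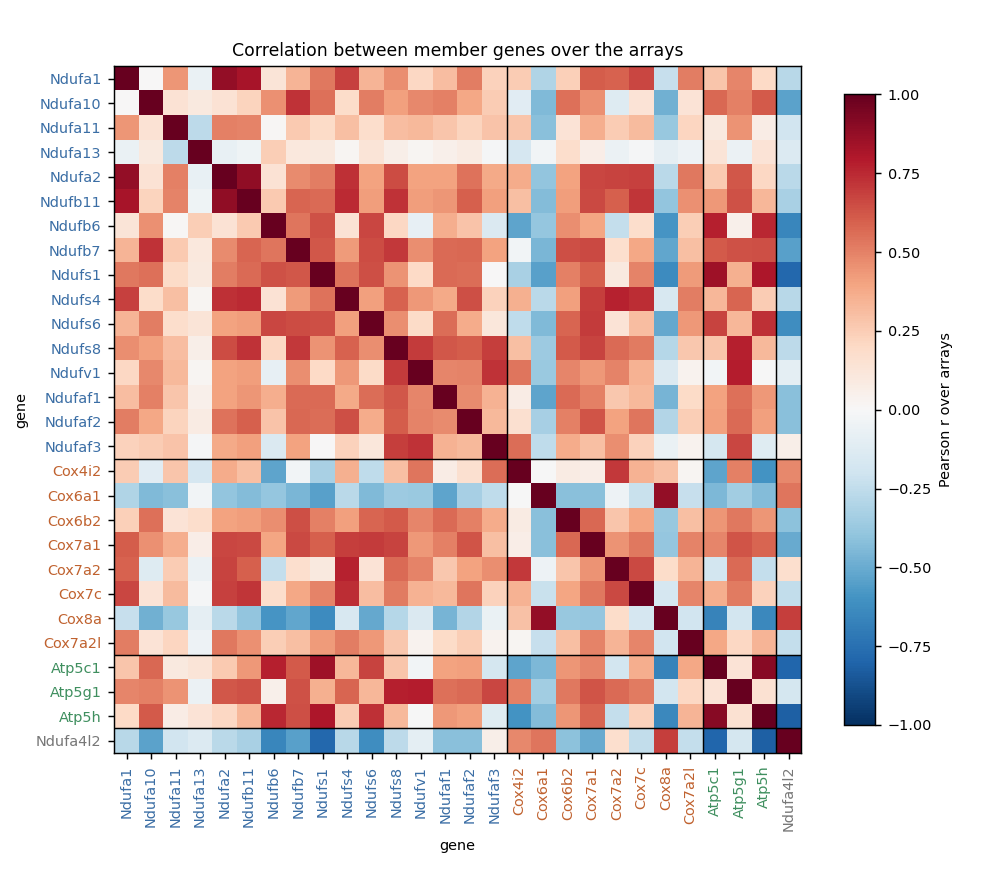
The map gives Pearson r over arrays between the 28 measured genes, ordered by complex, from -1 in blue to 1 in red. Cox6a1, Cox8a and Ndufa4l2 form blue bands against most complex I and V genes, and Atp5c1, Atp5h and Ndufs1 are red with each other.

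Outside the members, the gene most like their mean was Mrpl16 (r = 0.793 over 319 arrays), a protein of the mitochondrial ribosome, among 10727 named genes. It was followed by the trefoil peptide gene Tff3 (0.785), the cation channel gene Trpv4 (0.774), the mitochondrial ribosome gene Mrpl46 (0.758), Oxnad1 (0.747), Lrrc63 (0.746), the nucleotide receptor gene P2ry2 (0.744), Mcee (0.737), which encodes methylmalonyl-CoA epimerase, Ciao3 (0.726) and the basement membrane collagen gene Col4a3 (0.724). The most opposite were the deubiquitinase gene Otud5 (-0.757), the calcium channel gene Itpr3 (-0.738), Ehd3 (-0.732), Ric8a (-0.717) and Helz2 (-0.698). Genes most like the mean of Cox6a1 and Cox8a, a pair chosen after its values were seen, were Ywhab (0.884), Lgals3bp (0.871) and Fah (0.865).

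Lists of related genes were set against the member mean. Of 30 mitochondrial ribosome genes, 13 correlated above 0.5, with a median of 0.423 against 0.0724 over all named genes. For 14 mitochondrial import genes the median was 0.365, and for 11 further assembly factors of the respiratory chain 0.336. On the arrays below the gap the median was 0.334 for the ribosome genes, 0.292 for the import genes, 0.0801 for the assembly factors and -0.00849 over all named genes. Among 8 partners of the chain, Slc25a4, the ADP/ATP carrier of muscle, was highest at 0.682, followed by mitochondrial creatine kinase Ckmt1 (0.477) and Vdac1 (0.476). Lowest were Nnt (0.149), Atpif1 (0.157) and Vdac3 (0.228). The order changed below the gap, where Atpif1 stood at 0.498, Slc25a4 at 0.419, Nnt at 0.0501 and Vdac3 at -0.0544. The median of the 8 partners was 0.377 over all arrays and 0.165 below the gap. Of 15 regulators of mitochondrial biogenesis, the deacetylase gene Sirt3 (0.616) and the nuclear receptor genes Esrra (0.598) and Ppara (0.309) were highest, and Gabpb1 (-0.145), Yy1 (-0.131) and Esrrg (-0.12) lowest. Ppargc1a, a coactivator known for inducing mitochondria, stood at 0.275. The median of the regulators was 0.126 over all arrays and -0.0597 below the gap. All 10 lymphocyte genes and all 14 macrophage genes correlated negatively with the member mean, with medians of -0.544 and -0.49. Over only the arrays below that gap these medians were 0.0304 and -0.198.

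Scores of 6 gene lists that hold no member were then used as measures of the tissue. A score is the mean of the z-scored genes of a list, and limma fitted each probe on it. A slope is in log2 units per 1 SD of the score with its standard error, and a probe counts as called where the Benjamini-Hochberg adjusted p over all tested probes is under 0.05. Some of these scores moved with most of the array, so each count is set beside the share of all probes called the same way.

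Slow fibre genes were 11 measured genes of the type found in oxidative fibres, such as Myh7 and Tnnt1. At an unadjusted p under 0.05 in limma, 20 of 33 member probes were higher with their score and 1 lower. After adjustment 8 rose with the score and 0 fell, where 7.31% of all probes rose and 6.71% fell. The 8 belonged to complex I (Ndufa1, Ndufa2, Ndufs1, Ndufs8 and both Ndufb11 probes), to its assembly factor Ndufaf1 and to the c-ring gene Atp5g1. Ndufa1 had the largest slope, 0.077 ± 0.015 (SE, limma adjusted p = 1.33e-05), followed by Ndufs1 (0.055 ± 0.014, adjusted p = 0.00176) and Atp5g1 (0.053 ± 0.012, adjusted p = 0.000467). The same 8 probes were called higher under every other setting that tested them, apart from the 56 arrays above the gap. Of the 7 complex IV subunits limma called 0, with 3 at an unadjusted p under 0.05, and their slopes lay between 0.005 and 0.048. Other probes joined under some settings. With quantile normalization 23 were higher and 1 lower, where 17.5% of all probes were higher and 13.9% lower. With a spline of animal number 18 were higher, where 8.48% of all probes were, and above the gap, with 56 arrays, 0 were called by limma, with 8 higher at an unadjusted p under 0.05, where 0.397% of all probes were called higher.

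Fatty acid oxidation genes, 11 measured genes such as Acadm, Hadhb and Cpt2, had 26 member probes higher and 3 lower, where 34.4% of all probes were higher and 21.7% lower. All 6 complex V probes rose. The highest slopes were those of Atp5h probe A (0.189 ± 0.018, limma adjusted p = 2.01e-21), Cox7a1 (0.187 ± 0.013, adjusted p = 1.93e-34) and Atp5c1 probe D (0.182 ± 0.023, adjusted p = 2.49e-13). The 3 that fell were Cox6a1 (-0.087 ± 0.021), Ndufa4l2 (-0.079 ± 0.009) and Cox8a (-0.056 ± 0.017). On the arrays below the lymphocyte gap 23 probes rose and 0 fell, with 1 lower at an unadjusted p under 0.05, where 11.6% of all probes rose and 12.7% fell, and Cox6a1 and Cox8a then rose, with slopes of 0.056 ± 0.017 and 0.058 ± 0.014. With the 6 scores of other cell types as covariates, 27 rose and 0 fell, with 1 lower at an unadjusted p under 0.05, where 13.1% of all probes rose and 12.9% fell. The rise of 20 of the 26 probes was called under every other setting except the arrays above the gap, which were not counted here, among them Cox7a1, Ndufs1, Ndufv1 and Atp5g1.

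The citrate cycle score, of 6 measured genes such as Cs and Ogdh, gave 29 member probes higher and 3 lower, where 50.5% of all probes were higher and 23.2% lower. Cox7a1 had the highest slope (0.184 ± 0.013) and Cox6a1 the lowest (-0.216 ± 0.018, limma adjusted p = 1.99e-27), with Cox8a at -0.151 ± 0.015 and Ndufa4l2 at -0.088 ± 0.008. All 15 complex I subunit probes rose. On the arrays below the gap 24 were higher, where 17.8% of all probes were, and 3 lower, where 14.1% were. With the cell type scores as covariates 23 were higher and 0 lower, with 25 and 0 at an unadjusted p under 0.05, where 20.4% of all probes were higher and 19.1% lower, and the slopes of Cox6a1 and Cox8a turned to 0.045 and 0.066.

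Glycolysis and glycogen genes were 13 measured genes such as Pfkm, Ldha and Pygm that are typical of fast fibres. Probes were called in both directions with their score, among the members and over the whole array. Over all arrays 22 probes were higher and 5 lower, where 41.5% of all probes were higher and 33.3% lower. The highest slopes were those of Atp5c1 probe D (0.299 ± 0.018, limma adjusted p = 1.01e-42), Atp5h probe A (0.272 ± 0.014) and Atp5c1 probe C (0.254 ± 0.015). The lowest were those of Cox6a1 (-0.236 ± 0.017), Cox8a (-0.225 ± 0.011) and Cox7a2 (-0.152 ± 0.018, adjusted p = 2.54e-15). Below the gap the counts changed to 10 higher and 16 lower, where 32.9% of all probes were higher and 37.1% lower, and with the cell type scores as covariates to 10 higher and 17 lower, where the shares were 32.8% and 39.2%. Both directions held for some members under every other setting, the arrays above the gap not counted. The 10 that stayed higher were probes C and D of Atp5c1 and both Atp5h, both Ndufb6, Ndufa10, Ndufb7, Ndufs1 and Ndufs6 probes. The 4 that stayed lower were Cox7a2, Cox4i2, Cox8a and Ndufa4l2. For Cox7a2 the slope was -0.226 ± 0.014 below the gap and -0.359 ± 0.022 with the covariates, while for Atp5c1 probe D it was 0.15 ± 0.017 and 0.287 ± 0.029. Cox7a1 lost its call, with a slope of 0.108 ± 0.016 over all arrays and -0.014 ± 0.015 below the gap.

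**Figure D4:**
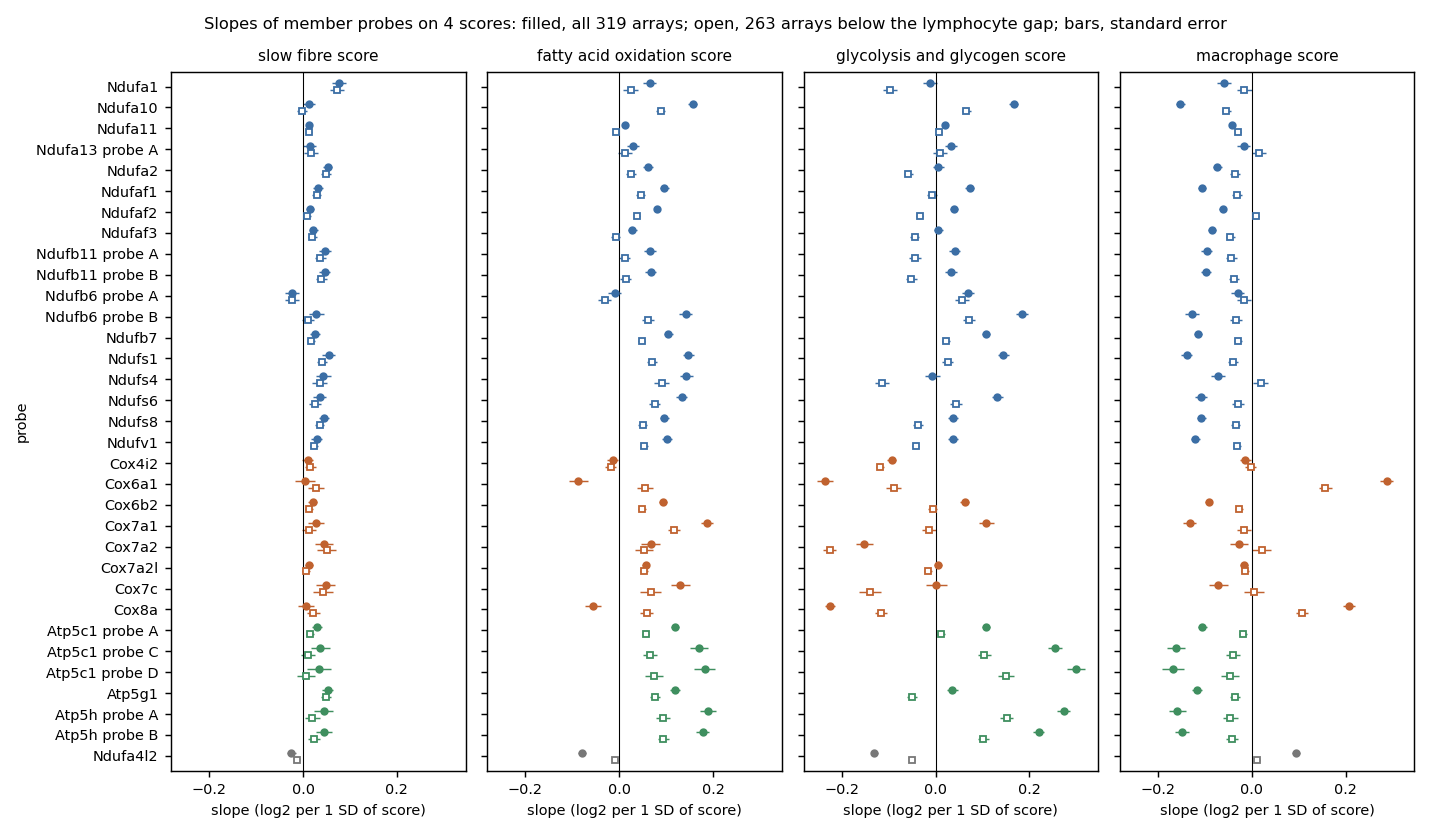
Points give the slope of each member probe in log2 units per 1 SD of the slow fibre, fatty acid oxidation, glycolysis and glycogen, and macrophage scores, coloured by complex, with the standard error as bars. Filled circles use all 319 arrays and open squares the 263 below the lymphocyte gap. Cox6a1 and Cox8a stand to the right in the macrophage panel in both sets of arrays.

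The macrophage score, of 14 measured genes such as Cd68, Csf1r and C1qa, had 26 member probes lower and 3 higher, where 53.3% of all probes were lower and 21.8% higher. The 3 that rose were Cox6a1 (0.287 ± 0.014, limma adjusted p = 1.10e-57), Cox8a (0.207 ± 0.012, adjusted p = 2.15e-44) and Ndufa4l2 (0.094 ± 0.008). The lowest slopes were those of Atp5c1 probes D (-0.169 ± 0.023) and C (-0.162 ± 0.019) and Atp5h probe A (-0.159 ± 0.018), and Cox7a1 stood at -0.133 ± 0.015. Below the gap 19 were lower, where 29.4% of all probes were, and 2 higher, where 13.1% were. The 2 were Cox6a1 (0.157 ± 0.014) and Cox8a (0.106 ± 0.013), while Cox7a1 had a slope of -0.017 ± 0.015. With the scores of 5 other cell types as covariates the slopes were 0.116 ± 0.017 for Cox6a1 and 0.089 ± 0.018 for Cox8a. Removing the first principal component, which held 24.0% of the variance, left 8 member probes lower and 1 higher, where 19.0% of all probes were lower and 12.4% higher.

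The adipocyte score, of 9 measured genes such as Lep, Plin1 and Pparg, had 24 member probes lower and 2 higher. Of all probes, 46.1% were lower and 19.3% higher. The 9 genes cohered weakly, with a mean correlation of 0.23 between them. With the member mean 7 of the 9 correlated negatively (Plin1 at -0.437), while Lep (0.273) and Retn (0.232) correlated positively. Cox6a1 (0.272 ± 0.015) and Cox8a (0.156 ± 0.015) were the 2 that rose, and remained so below the gap, with slopes of 0.2 ± 0.012 and 0.113 ± 0.012. The lowest slopes were those of Cox7a2 (-0.088 ± 0.019), Ndufv1 (-0.085 ± 0.011) and Ndufaf1 (-0.075 ± 0.01). Below the gap 14 were lower, where 32.1% of all probes were. Without the first principal component 12 were higher and 11 lower, where 22.6% of all probes were higher and 34.5% lower.

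Isoforms of the same complex IV subunit were compared directly by the slope of their log2 difference, tested two-sided by permuting the score over arrays (100000 resamples) with adjustment over the 3 pairs with both values on at least 20 arrays. Of these pairs, Cox7a1 with Cox7a2 on 319 arrays and Cox8b with Cox8a on 202 set a muscle isoform against one of most tissues. Cox4i1 with Cox4i2 on 144 set the isoform of most tissues against that of lung and smooth muscle. The pairs with Cox8b and Cox4i1 rest on arrays where these genes were not blank, and whether those stand for all arrays was not tested. Against the slow fibre score the slopes of the difference were -0.017 ± 0.019 (permutation adjusted p = 0.408), 0.026 ± 0.031 (0.408) and 0.025 ± 0.015 (0.306), so no change of isoform with slow fibres was detected in this fit. With quantile normalization the slope of Cox8b minus Cox8a was 0.1 (permutation adjusted p = 0.00693). Against the macrophage score, chosen after the data were seen, the difference Cox8b minus Cox8a fell by 0.299 ± 0.022 per SD and Cox7a1 minus Cox7a2 fell by 0.106 ± 0.018 (both permutation adjusted p = 1.5e-05, from the smallest p the resamples can give), while Cox4i1 minus Cox4i2 stood at -0.02 ± 0.015 (0.19). Below the gap the Cox7a difference was -0.038 (adjusted p = 0.0544). The fatty acid oxidation score was likewise not planned for this comparison, and the adjustment covers only the pairs within 1 score. Against it all 3 differences rose, by 0.121 ± 0.018 for Cox7a1, 0.139 ± 0.029 for Cox8b and 0.102 ± 0.013 for Cox4i1 (permutation adjusted p = 1e-05). Below the gap the difference of Cox8b was -0.036 (0.161). The pair of subunit 6a could not be compared, since Cox6a2 had values on 15 arrays, and Cox6b2 had no partner among the members.

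**Figure D5:**
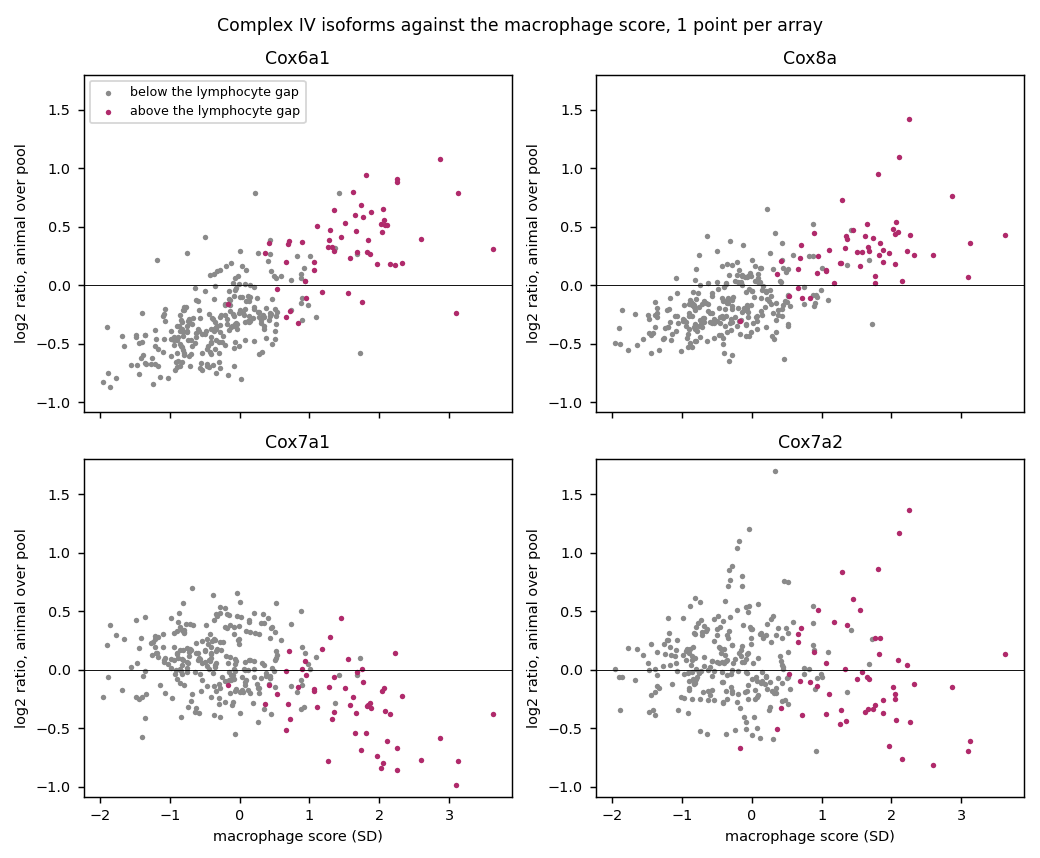
Each point is 1 array, with the macrophage score in SD on the horizontal axis and the log2 ratio of animal over pool of Cox6a1, Cox8a, Cox7a1 or Cox7a2 on the vertical axis. Cox6a1 and Cox8a climb with the score among grey points (below the lymphocyte gap) and purple points (above it), and Cox7a1 declines mainly among the purple ones.

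Other mitochondrial lists were counted in the same fits, over all 319 arrays. Of 36 probes of mitochondrial ribosome genes, 27 were higher and 1 lower with the fatty acid oxidation score, where 34.4% of all probes were higher and 21.7% lower. With the macrophage score 34 of them were lower, where 53.3% of all probes were, and with the glycolysis and glycogen score 20 were higher and 5 lower, where 41.5% and 33.3% were. With the slow fibre score 6 were higher and 1 lower, where 7.31% and 6.71% were. Of 16 probes of biogenesis regulators, 10 were higher with the fatty acid oxidation score, 11 lower with the macrophage score, 12 higher with the glycolysis and glycogen score, and 3 higher and 2 lower with the slow fibre score. Whether these lists differ from the members was not tested.

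At an autosomal locus an F2 animal carries 0, 1 or 2 copies of a parental allele. A strong local variant there would split a probe into 3 classes in the ratio 1:2:1. Ndufa1 and Ndufb11 lie on the X chromosome, where that ratio does not hold when both sexes are used. The mixture is therefore no fair test for their probes, which stay in the counts below. Of the 33 member probes, 0 were called by a mixture of 3 evenly spaced classes, where 0.69% of 23190 probes were called, and 0 were called at a spacing over 2 SDs in place of 3, where 0.854% were. The member probes with the largest BIC gain were Cox7c (-5.58), Ndufb11 probe A (-5.71) and Atp5c1 probe C (-5.77), all below 0 and so better described by 1 normal distribution. These gains are close to the penalty for 1 further parameter, which is smaller for probes with fewer values. Cox7c had 256 values and Ndufb11 probe A 299, so the order does not rank members by nearness to 3 classes. Smaller differences between alleles would not be called by this rule.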

How the data were processed

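The deposited table holds 1 value per probe and array, used here as a log10 ratio. The labels state neither its base nor its direction, and the values end at exactly -2 and 2, a limit set before deposit. Values were multiplied by 3.32 to give log2 ratios. Background correction, normalisation and the reason for blanks are not stated (not given in the sources used here). Image values were not analysed here. Array medians lay between -0.08 and 0.14. Arrays hold no count of molecules, so their number limits the precision. Nothing says how muscle was taken from each animal, and p-values measure the spread between these arrays.

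Probe names came from the platform annotation, which names 13639 probes by 1 symbol and 48 by several, and leaves 9695 without one. Of the first, 12647 kept a current name through the RefSeq table of GRCm38.p6. No source used here names the build of the probe design. The sample descriptions name 330 mice and the series design 319. Animal numbers ran from 1 to 359, number 227 stood on 2 arrays, both kept, and 1 array whose title and source name differ was numbered by its source name.

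Probes with values on at least 80% of arrays were fitted with limma 3.58.1 (R 4.3.3) on each score, without the genes of that score, with Benjamini-Hochberg adjustment at 0.05. Probes of a gene were averaged for scores and correlations. The mixture called a probe where BIC gained over 10 with classes spaced by more than 3 component SDs. The limma and mixture steps were tested on simulated data. Blanks were treated as missing. Promoters were searched with Python 3.11.15, using the first RefSeq entry of a gene. A 10-letter motif that had also been searched was left out. Members, lists and tests were chosen with earlier results of these data known. Named with values were the 3 called members of highest and lowest slope in each fit, the isoform members, the 3 of largest BIC gain, members with a mean correlation under 0.1, and the genes most and least like the member mean.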

Additional observations from a re-analysis of the deposited data

How the results depend on the processing

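No paired analysis was possible because the labels give 1 group of animals. The counts below are of the 33 member probes called higher or lower, and the cause of each change was not tested. The share of all probes called the same way also moved between settings. It stands beside each count unless given further up. Quantile normalization moved the slow fibre counts to 23 higher and 1 lower, and the slope of Cox8b minus Cox8a on that score to 0.1 (permutation adjusted p = 0.00693). A spline of animal number gave 18 higher with the slow fibre score. On that score the probe of largest SD per gene gave 13 higher, where 8.22% of all probes were. Leaving out the 2 farthest arrays gave 1 lower, where 5.75% were. Without the first principal component the counts were 14 higher and 1 lower for slow fibre, where 9.31% and 10.2% of all probes were. For citrate cycle 0 were lower, where 13.5% were, and for fatty acid oxidation 1 was lower, where 18.8% were. For glycolysis 10 were higher and 18 lower, where 36.4% and 42.8% were. For macrophage 1 was higher and 8 lower, and for adipocyte 12 were higher and 11 lower. With cell type scores as covariates the counts were 1 lower for slow fibre, where 10.2% of all probes were. They were 0 lower for citrate cycle, 0 lower for fatty acid oxidation, and 10 higher and 17 lower for glycolysis. For macrophage 14 were lower, where 23.8% were, and for adipocyte 6 were higher and 12 lower, where 17.4% and 30.1% were. On the arrays below the lymphocyte gap the counts were 0 lower for fatty acid oxidation and 14 lower for adipocyte. For glycolysis they were 10 higher and 16 lower. The 56 arrays above the gap were an alternative added after seeing the data, with 32 member probes tested. There 0 were higher for slow fibre. For citrate cycle 15 were higher and 0 lower, where 15.8% and 11.5% of all probes were. For fatty acid oxidation 1 was lower, where 8.73% were, and for glycolysis 14 were higher, where 26.2% were. For macrophage 17 were lower, where 8.36% were, and for adipocyte 1 was higher and 1 lower, where 7.97% and 12.1% were. Subtracting array medians gave 8 lower for glycolysis, where 39.8% of all probes were, and 4 higher for adipocyte, where 27.9% were. Probes with a value on every array gave 1 higher for adipocyte, where 19.6% were. All other counts stayed within 1.5 times.

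Slopes of some named members changed sign. Without the first principal component the slope on the citrate cycle score was 0.0398 for Cox6a1, 0.0471 for Cox8a and 0.00175 for Ndufa4l2; on fatty acid oxidation 0.071 for Cox6a1 and 0.061 for Cox8a; on glycolysis -0.0203 for Cox7a1 and -0.028 for Cox6b2; on macrophage -0.016 for Ndufa4l2, 0.022 for Atp5c1 probe D, 0.019 for Atp5c1 probe C, 0.022 for Atp5h probe A, 0.014 for Cox7a1 and 0.0047 for Cox6b2; on adipocyte 0.011 for Cox7a1 and 0.00629 for Cox6b2. With cell type scores as covariates it was 0.045 for Cox6a1, 0.066 for Cox8a and 0.015 for Ndufa4l2 on citrate cycle, 0.056 for Cox6a1 and 0.069 for Cox8a on fatty acid oxidation, and -0.016 for Cox7a1 and -0.036 for Cox6b2 on glycolysis. Below the gap it was 0.056 for Cox6a1 and 0.058 for Cox8a on fatty acid oxidation, and -0.014 for Cox7a1 and -0.00637 for Cox6b2 on glycolysis. Above the gap it was -0.00141 for Atp5c1 probe D on citrate cycle, and 0.042 for Cox7a1 and 0.0068 for Cox6b2 on adipocyte, and the mean correlation between complexes IV and V was -0.031.

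The isoform difference Cox7a1 minus Cox7a2 had a slope of 0.076 on slow fibre above the gap and -0.038 (adjusted p = 0.0544) on macrophage below it. Cox8b minus Cox8a had -0.0101 on slow fibre and -0.036 on fatty acid oxidation below it. Cox4i1 minus Cox4i2 had 0.026 on macrophage below the gap and -0.085 (adjusted p = 0.0164) above it. The 0 member probes called by the mixture and the mean correlations within complexes I, IV and V kept to the spread over pairs in every alternative run.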
